A study of Homo sapiens with 5 samples.

Results

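The 827 sites described here are peaks of the histone demethylase LSD1 in LNCaP cells that lie at the ends of genes. They were chosen from the 11673 LSD1 peaks of the LNCaP list by 3 criteria. Each lies on chromosomes 1 to 22 or X, overlaps by not even 1 base any LSD1 peak of VCaP cells or any LNCaP peak of phosphorylated histone H3 (H3T6ph), and comes within 1 kb of either end of a gene interval in the expression table of the series. Of the LNCaP LSD1 peaks on these chromosomes, 10107 met the first 2 criteria and are called LNCaP-only below. The members are 8.18% of them, with a 95% Wilson interval of 7.66 to 8.73%. Wilson intervals here cover counting error only. Since the peak lists chose the members, their number, scores and distances to other peaks are given as descriptions.

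The series held 5 samples, 1 for each group. There were 3 chromatin immunoprecipitation (ChIP-seq) samples, namely LSD1 in LNCaP, LSD1 in VCaP and H3T6ph in LNCaP, all from cells that were not transfected. Besides these, 2 RNA-seq libraries came from LNCaP after transfection, 1 with control siRNA and 1 with siRNA against LSD1. LNCaP and VCaP are established human prostate cancer lines, and in all 5 samples the cells had spent 3 days in medium with 10% charcoal-stripped serum, which is poor in steroid hormones, ahead of a hormone stimulus that the labels do not name. No group has a replicate, so no value has an error between replicates and a difference between the lines cannot be told apart from one between 2 experiments. No RNA library of VCaP was used here.

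LSD1, encoded by KDM1A, removes methyl groups from histone H3 and acts in the CoREST and NuRD complexes together with the deacetylases HDAC1 and HDAC2. It can silence promoters by removing a histone methyl mark of active promoters, and in prostate cells it has also been described as a coactivator of the androgen receptor. Active promoters of widely used genes mostly lie in CpG islands, stretches rich in the dinucleotide CG, whereas many promoters of tissue-restricted genes are poor in it.

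The sequences below are shown because members were found at both kinds of promoter, and they were printed only where the RefSeq gene and the interval agreed in length within 100 bases. Each is the 250 bases before the start of a gene whose start was covered by a member site, taken from RefSeq on build GRCh38.p14 and written 5′ to 3′ along the gene, with every CG in capitals. The first 3 belong to the highest-scoring of these sites at genes under 1 FPKM in the control library (FPKM is the authors' fragment count scaled to transcript length and library size). They are SIX2, a homeobox factor of kidney progenitors (chr2:45009453-45009702, minus strand), INSL5, a gut hormone of the insulin family (chr1:66801277-66801526, minus strand), and GPR148, an orphan receptor (chr2:130728820-130729069, plus strand).
SIX2: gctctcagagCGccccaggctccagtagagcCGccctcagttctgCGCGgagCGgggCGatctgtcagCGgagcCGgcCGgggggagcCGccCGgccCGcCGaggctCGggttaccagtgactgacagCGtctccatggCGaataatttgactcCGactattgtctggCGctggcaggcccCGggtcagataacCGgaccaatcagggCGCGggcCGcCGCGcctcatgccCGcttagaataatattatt
INSL5: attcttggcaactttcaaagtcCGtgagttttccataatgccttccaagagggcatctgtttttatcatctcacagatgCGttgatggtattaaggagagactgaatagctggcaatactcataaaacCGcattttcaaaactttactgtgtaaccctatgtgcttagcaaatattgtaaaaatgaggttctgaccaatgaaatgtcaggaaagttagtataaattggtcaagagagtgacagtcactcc
GPR148: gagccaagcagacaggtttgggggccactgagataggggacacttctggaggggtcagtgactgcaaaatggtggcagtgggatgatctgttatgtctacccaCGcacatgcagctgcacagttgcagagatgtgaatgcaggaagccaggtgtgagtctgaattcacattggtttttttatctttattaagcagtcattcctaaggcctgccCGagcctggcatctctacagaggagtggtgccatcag
The SIX2 stretch holds 26 CG dinucleotides, while those of INSL5 and GPR148 hold 3 and 2. The next 5 belong to genes with RNA above 1 FPKM, of which all but RALGAPB are named again below. RALGAPB encodes a subunit of a Ral GTPase-activating complex (chr20:38472593-38472842, plus strand) and has the highest-scoring of these sites at a gene above 1 FPKM, RBBP9 a serine hydrolase that binds the retinoblastoma protein (chr20:18497226-18497475, minus strand), CROT a carnitine acyltransferase of peroxisomes (chr7:87345414-87345663, plus strand), HDAC1 the deacetylase partner of LSD1 (chr1:32291833-32292082, plus strand) and FLVCR2 a membrane transporter (chr14:75578370-75578619, plus strand).
RALGAPB: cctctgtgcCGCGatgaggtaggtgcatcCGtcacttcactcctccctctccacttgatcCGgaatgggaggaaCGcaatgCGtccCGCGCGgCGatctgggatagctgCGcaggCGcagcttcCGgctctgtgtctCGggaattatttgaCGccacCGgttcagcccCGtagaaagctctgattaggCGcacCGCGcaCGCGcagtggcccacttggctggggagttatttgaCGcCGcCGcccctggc
RBBP9: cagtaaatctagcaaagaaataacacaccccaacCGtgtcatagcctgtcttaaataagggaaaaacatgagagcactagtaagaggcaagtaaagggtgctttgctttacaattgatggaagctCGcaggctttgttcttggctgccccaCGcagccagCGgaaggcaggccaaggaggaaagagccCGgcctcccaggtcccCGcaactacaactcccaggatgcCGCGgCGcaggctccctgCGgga
CROT: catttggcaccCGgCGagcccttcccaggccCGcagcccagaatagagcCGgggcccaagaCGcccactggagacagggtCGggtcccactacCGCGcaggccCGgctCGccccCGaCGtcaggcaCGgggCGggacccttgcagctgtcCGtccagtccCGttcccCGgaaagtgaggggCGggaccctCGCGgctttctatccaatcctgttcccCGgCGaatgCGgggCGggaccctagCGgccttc
HDAC1: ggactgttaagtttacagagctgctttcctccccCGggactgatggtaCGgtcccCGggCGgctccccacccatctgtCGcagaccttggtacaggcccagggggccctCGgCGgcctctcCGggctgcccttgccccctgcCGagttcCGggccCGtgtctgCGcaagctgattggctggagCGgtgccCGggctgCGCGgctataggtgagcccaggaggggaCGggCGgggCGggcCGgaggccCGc
FLVCR2: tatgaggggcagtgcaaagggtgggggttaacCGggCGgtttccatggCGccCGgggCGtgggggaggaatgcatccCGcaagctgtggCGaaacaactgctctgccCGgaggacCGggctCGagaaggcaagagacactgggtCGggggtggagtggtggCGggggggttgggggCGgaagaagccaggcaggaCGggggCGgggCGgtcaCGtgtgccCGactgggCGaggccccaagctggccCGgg
They hold 25, 10, 25, 21 and 20 CG dinucleotides in that order. Of these 5 genes RBBP9 has the sparsest stretch.

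Member sites were compact and mostly of modest score. Their median width was 694 bases (quartiles 589 and 864, range 436 to 1821). The authors' score, whose scale is not stated and which starts at 50 in every list, had a median of 62.5 (quartiles 55.5 and 74.1), against 65.7 for LNCaP-only sites inside genes and 66.5 for those between genes. Only 15.4% of members (13.1 to 18.0%) scored above the upper quartile of the LNCaP list, against 33.1% (27.7 to 38.9%) of the 269 gene-end LSD1 peaks of LNCaP that overlapped the VCaP list. The 1 kb limit cut through a continuous range of sites. A site at MIR137HG on chromosome 1 (98513632 to 98514249, hg19, score 80.7) lay 1000 bases from the end and a site at ASZ1 996 bases, whereas sites at PPIP5K2 and BTBD19 were just outside at 1002 and 1011 bases.

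Few of the members were near misses of a VCaP or H3T6ph peak. The median distance to the nearest VCaP LSD1 peak was 77.4 kb (quartiles 25.2 and 172.9), and 16 members (1.93%) had one within 1 kb. The closest were at WDR13 on chromosome X (72 bases away), ADAM22 on chromosome 7 (75 bases) and NPBWR1 on chromosome 8 (99 bases). To the nearest H3T6ph peak the median distance was 207 kb, and 6 members had one within 1 kb, the nearest of them at FMN1 on chromosome 15 (164 bases). A peak list leaves out sites under its threshold, so a member may still be bound in VCaP.

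The 827 sites touched 902 of the 19527 gene intervals, or 4.62%. A single interval was near 744 of the sites and 2 intervals were near 83. An end itself was covered by 402 sites, 642 overlapped an interval and 185 lay outside all of them. The intervals carry no strand, so the start of a gene was read from the strand in the RefSeq promoter table. This required an interval with 1 gene, listed there and with no other interval, and neighbours in the same order on both builds. VCaP-only sites on chromosome 8 were not oriented, nor were LNCaP-only sites there such as those at CDCA2, DUSP4 and SLC18A1. Results by gene start or far end leave such sites out. A start or far end could be assigned for 585 member sites. Of these, 461 lay at a gene start, which is 78.8% (75.3 to 81.9%), and 140 at the far end of a gene, with 16 counted under both. Among VCaP-only LSD1 sites at gene ends, chosen by the mirrored rule, 823 of 929 lay at a start, or 88.6% (86.4 to 90.5%).

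At starts the midpoint of a LNCaP-only site was more often upstream than inside the gene. Of 490 pairs of a site and a gene start, 255 covered the start (52.0%, 47.6 to 56.4%), and the midpoint was upstream in 290 (59.2%, 54.8 to 63.4%), with a median 62.5 bases upstream. The LNCaP LSD1 peaks that were also in the VCaP list had much the same placement, with the midpoint upstream in 61.8% of 170 start pairs (54.3 to 68.7%) and a median 73.5 bases upstream, and they covered the start in 71.2% (64.0 to 77.5%). VCaP-only sites covered the start in 61.9% of 880 pairs (58.7 to 65.1%) and had their midpoint upstream in 45.6% (42.3 to 48.9%), with a median 63 bases inside the gene. VCaP-only peaks were wider, with a median of 1006 bases against 694, and the part of width in these shares was not tested. The intervals for the upstream share of LNCaP-only and VCaP-only sites do not overlap. They treat pairs as independent, and a site between divergent genes counts once for each. At far ends 43 of 141 LNCaP-only pairs (30.5%, 23.5 to 38.5%) covered the end, and the median midpoint was 36 bases inside the gene.

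**Figure D1:**
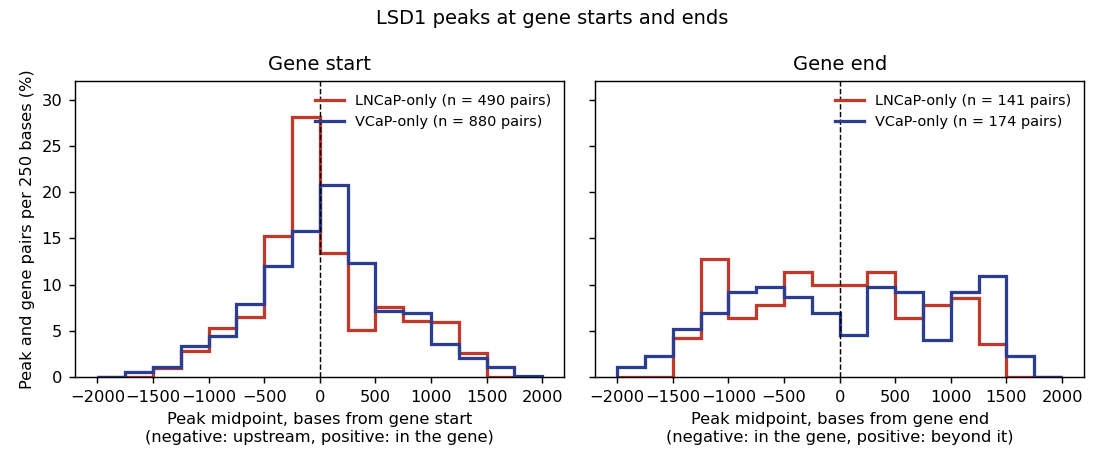
Share of site and gene pairs (y axis, percent per 250 bases) by the distance of the peak midpoint from the gene start (left) or gene end (right), for LNCaP-only (red) and VCaP-only (blue) LSD1 peaks. The 250 bases before the start held 28.2% of LNCaP-only pairs and 15.8% of VCaP-only pairs, and the first 250 bases of the gene held 13.5 and 20.8%.

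The sites were spread over the autosomes and sparse on X. Sites stood at an end of 6.49% of intervals on chromosome 11 (5.23 to 8.03%) and 6.43% on chromosome 5, at the upper side of the autosomes, and of 2.42% on chromosome 21 (1.11 to 5.18%). On chromosome X it was 7 of 805 intervals, or 0.870% (0.422 to 1.78%). VCaP-only sites were also sparse on X, at 1.37% of intervals (0.765 to 2.43%). VCaP-only sites stood at more intervals in all, 1532 against 902, and their share lay above that of LNCaP-only sites, with intervals that did not overlap, on 10 chromosomes (3, 6, 7, 8, 9, 12, 15, 17, 19 and 21). Chromosome 12 had 4.26% (3.18 to 5.69%) with a LNCaP-only site and 14.4% (12.3 to 16.7%) with a VCaP-only one. The reverse was seen on 1 chromosome, 16, with 6.24% (4.77 to 8.14%) and 1.25% (0.680 to 2.28%). On chromosome 19, which is dense in genes, 54 of the 194 LNCaP-only sites (27.8%) were at gene ends, against 8.18% over all chromosomes. Counted by intervals it did not stand out, with a member at an end of 4.31% (3.38 to 5.48%), against 4.62% of all intervals.

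**Figure D2:**
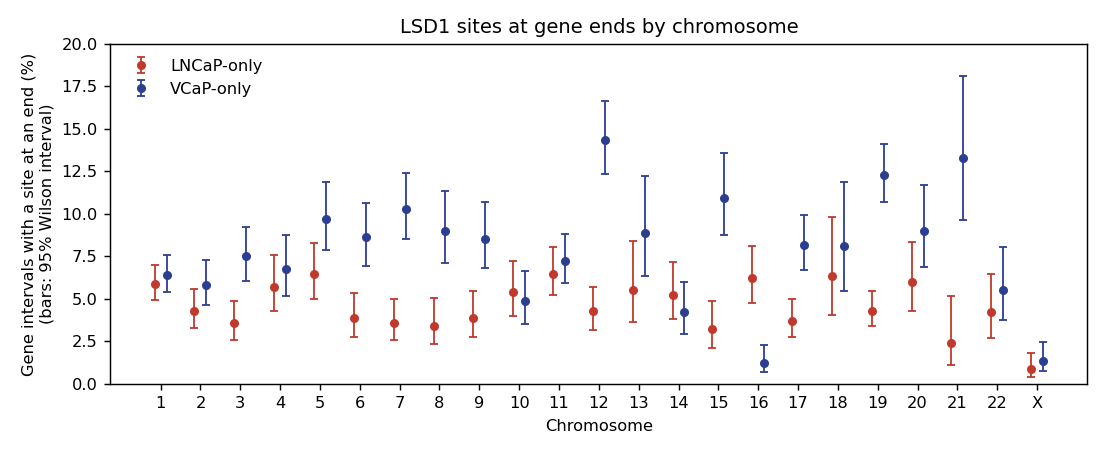
Share of gene intervals with a site at an end (y axis, percent, bars give 95% Wilson intervals) on each chromosome (x axis), for LNCaP-only (red) and VCaP-only (blue) LSD1 peaks. LNCaP-only sites are at 0.870% of intervals on X and 6.24% on chromosome 16, where VCaP-only sites are at 1.25%.

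The RNA of LNCaP was then read at the genes of these sites, which the choice of sites did not use. All 10 luminal prostate markers used as a check of the cell line were at 1 FPKM or more in the control library, led by KLK3. None of the 4 basal and 4 immune markers was, and 2 of 6 fibroblast and smooth muscle, 1 of 3 endothelial and 1 of 3 neuroendocrine markers were. The member intervals held 1082 genes, 938 of them protein-coding. For 752 genes the interval held no other gene, and 330 shared an interval, so that the site may be at the end of a neighbour.

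Genes at the member sites were more often active than genes at large, and those with a site at the start most often. Among protein-coding genes 737 of 938 (78.6%, 75.8 to 81.1%) were at 1 FPKM or more in the control library, against 62.0% of all 18633 protein-coding genes and 66.4% (64.7 to 67.9%) of those with a LNCaP-only site inside. With a site at the start it was 84.7% (81.1 to 87.7%) of 464, and with a site at the far end 66.2% (57.8 to 73.7%) of 133. Genes with a VCaP-only site at the start gave 86.5% (84.0 to 88.6%) of 842, an interval that overlaps the one for LNCaP-only sites. Over genes of all kinds the share was 71.7% at member sites (69.0 to 74.3%) and 55.2% in the whole table. These shares describe 1 library, and no test was made.

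**Figure D3:**
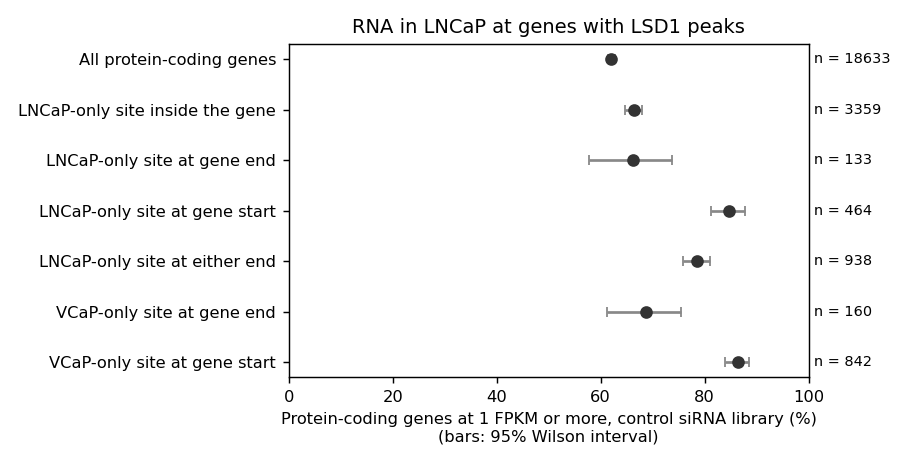
Share of protein-coding genes at 1 FPKM or more in the control siRNA library of LNCaP (x axis, percent, bars give 95% Wilson intervals) for gene groups by the place of an LSD1 peak (y axis). Genes with a LNCaP-only site at the start are at 84.7% and those with one at the far end at 66.2%, against 62.0% of all protein-coding genes.

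The level at genes with a site at the start ran from 0 FPKM to 2035 FPKM, with a median of 10.8 FPKM over 489 genes of all kinds. Of these, 84 were under 1 FPKM, of which 27 were listed at 0, 153 lay from 1 to 10, 234 from 10 to 100 and 18 at 100 or more. Of the 6 protein-coding member genes with the highest control levels, 3 are among these 489. RPL36 (2035 FPKM in the control and 2039 FPKM in the LSD1 siRNA library), RPL6 (1372 and 1282 FPKM) and RPS13 (1153 and 1208 FPKM), all ribosomal protein genes, had a site covering the start. RPL17 (1760 and 1702 FPKM), TPT1, a translationally controlled protein (1886 and 1827 FPKM), and SPON2, a secreted matrix protein (1124 and 995 FPKM), are the other 3, and they share their intervals with other genes, so that their sites were not oriented. Ribosomal protein genes have many processed copies elsewhere in the genome, so their levels are uncertain.

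Of the 8 sites with the highest scores, 5 stood at genes under 1 FPKM only. The site with the highest score (288.7) covered the start of CAVIN2, a coat protein of caveolae, on chromosome 2 (192711527 to 192712543, hg19). CAVIN2 was at 0.0497 FPKM in the control library and 0.0900 FPKM after LSD1 siRNA. The next, at CPN2, a subunit of the plasma enzyme carboxypeptidase N, lay inside the gene 310 bases from its start (chromosome 3, 194070833 to 194071747, score 232.5), and the gene was listed at 0 FPKM in both libraries. The third was near the start of PIK3AP1, a signalling adapter of B cells (chromosome 10, 98478834 to 98479659, score 195.3), at 3.36 FPKM and 2.60 FPKM. CYP3A43, a cytochrome P450 (chromosome 7, 99424741 to 99426204, score 190.7), was at 0.694 FPKM and 0.676 FPKM. The pseudogene ANKRD30BP2 on chromosome 21 (score 178.5) was at 0.170 FPKM and 0.134 FPKM, and NMBR, the neuromedin B receptor, on chromosome 6 (score 176.4) was at 0 FPKM and 0.0341 FPKM. The seventh site, on chromosome 1 (score 172.1), covered an end of LIX1L (3.74 FPKM and 3.73 FPKM) and lay 980 bases from an end of ANKRD34A (0.959 FPKM and 0.989 FPKM). The eighth, on chromosome 18 (score 169.0), was at an interval shared by GNAL (0.285 FPKM and 0.369 FPKM), CHMP1B (36.9 FPKM and 33.8 FPKM) and MPPE1 (8.98 FPKM and 9.26 FPKM). None of the 8 had a VCaP LSD1 peak closer than 5.45 kb.

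Members were ranked by score and split into 4 groups of nearly equal size to describe this. In the group with the highest scores 85 of 121 genes with a site at the start were at 1 FPKM or more (70.2%, 61.6 to 77.7%), against 88.8% (82.1 to 93.2%), 85.7% (78.5 to 90.8%) and 86.3% (78.9 to 91.4%) in the other groups, from the lowest scores upward. Among the 10 such genes with the highest scores it was 4 of 10 (16.8 to 68.7%) and among the highest 50 it was 66.0% (52.2 to 77.6%). Over all 489 genes the rank correlation of score with control level was -0.06, and only the group with the highest scores had a share apart from the other 3. Over member genes of all kinds and places no lower share was seen at sites above the list's median score. There 71.8% of 412 genes were at 1 FPKM or more, against 71.7% of all 1082. Score also rose with site width (rank correlation 0.44), and the part of width was not tested. The genes share 1 RNA library and 1 peak list, and the correlations are given with no test.

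The promoters of the same genes were then described. A promoter was called CpG-rich where the CpG ratio, the number of CG divided by that expected from the C and G content, was 0.6 or more over the 300 RefSeq bases from 250 before to 50 after the start. It was so for 396 of the 489 genes with a site at the start (81.0%, 77.3 to 84.2%), against 65.0% of all 11724 promoters of oriented genes and 85.0% (82.5 to 87.2%) of the 875 with a VCaP-only site at the start. Active genes have CpG-rich promoters more often in general. Among genes at 1 FPKM or more the share was 87.2% (83.5 to 90.1%) with a member site and 84.4% (83.6 to 85.3%) over all. Among genes under 1 FPKM it was 51.2% (40.7 to 61.6%) of the 84 with a site, against 35.5% (34.1 to 36.9%). In the group with the highest scores 70.2% were CpG-rich (61.6 to 77.7%) and in the lowest 88.0% (81.1 to 92.6%). The printed stretches of INSL5 and GPR148, with CpG ratios of 0.298 and 0.101 over 300 bases, and of SIX2, with 0.949, show both kinds among strong sites.

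**Figure D4:**
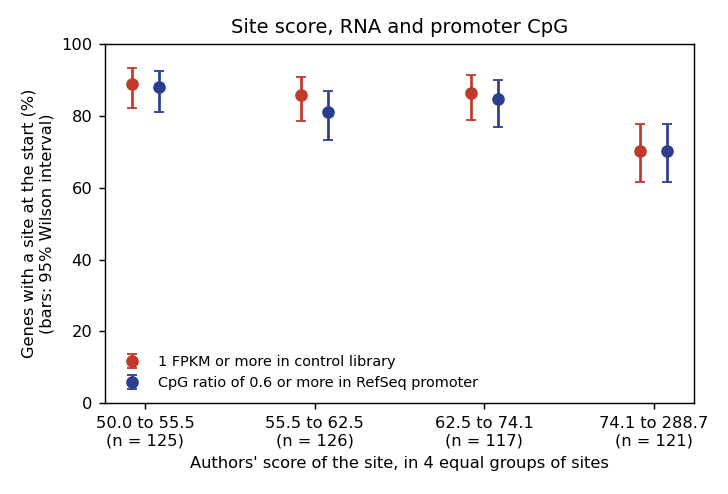
Share of genes with a site at the start (y axis, percent, bars give 95% Wilson intervals) that were at 1 FPKM or more (red) or had a CpG ratio of 0.6 or more (blue), in 4 groups by the authors' score (x axis). Both shares are at 70.2% in the group with the highest scores and at 88.8 and 88.0% in that with the lowest.

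Motifs were counted as plain letters on both strands of the same 300 bases, and a match is a description of the sequence. CCAAT, the NF-Y box, was in 40.7% (36.4 to 45.1%) of the 489 promoters with a member within 1 kb of the start, against 36.5% (35.7 to 37.4%) of all promoters and 37.7% (34.6 to 41.0%) of the 875 with a VCaP-only site within 1 kb. The interval for members overlaps both others. In the 255 promoters whose start a member covered it was 46.7% (40.6 to 52.8%). The like share for starts covered by a VCaP-only site was not computed, so the 46.7% is not read as particular to members. GGGCGG, the GC box of Sp1 and KLF factors, was in 66.3% (62.0 to 70.3%) of the 489 promoters and in 58.5% of all. It was in 63.2% (60.0 to 66.3%) of those with a VCaP-only site and in 61.6% (55.5 to 67.3%) of the 255 covered by a member. TATAAA was in 5.93% (4.16 to 8.39%) against 9.73%, and TGACTCA, the AP-1 site, in 2.25% (1.26 to 3.98%) against 3.79%. AGAACA, a core motif of the androgen and glucocorticoid receptors, was in 9.41% (7.13 to 12.3%) against 11.6%. With a VCaP-only site TATAAA was in 7.09% (5.57 to 8.98%), TGACTCA in 2.40% (1.58 to 3.64%) and AGAACA in 10.6% (8.76 to 12.8%). For GGGCGG and these motifs the intervals of members and VCaP-only sites overlap. Of the other 4 motifs, TGTTTAC (forkhead) was in 3.07 against 2.68%, GGAAGT (ETS) in 28.2 against 24.7%, TGACGTCA (CRE) in 3.27 against 2.48% and CACGTG (E-box) in 8.79 against 8.74%. Base composition differs between these groups of promoters, and its part in the motif shares was not tested.

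After LSD1 siRNA, KDM1A RNA was at 6.87 FPKM against 37.0 FPKM with control siRNA, or 18.6%. The nearest member site was 260.5 kb from KDM1A. Of the genes at member sites 792 were at 1 FPKM or more in either library. On the log2(FPKM + 1) scale, which understates the change of low genes, their median difference was -0.02, against -0.01 for all 12914 such genes. There were 359 above 0 and 433 below, beside 6122 above and 6792 below over all 12914. For the 409 genes with a site at the start the median was also -0.02, and for the 91 with one at the far end -0.0024. From the most frequent ratio of low values, depth after LSD1 siRNA was put at 77.5% of that with control siRNA.

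A 2-fold change, the fixed size used to call genes, was reached by 8 member genes upward, where 0.844% of all genes were called, and by 3 downward, where 1.13% were. The 8 are 1.01% and the 3 are 0.379% of the member genes measured. At 1.5-fold there were 15 higher and 16 lower, where 1.91% and 2.41% of all genes were called. Of these 11 genes 9 were under 300 bases long, and such genes also made up 224 of the 255 called in the whole table. VTRNA1-3, a vault RNA, was at 32.5 FPKM and listed at 0 FPKM after LSD1 siRNA. SNORD53 (95.2 FPKM), MIR658 (46.1 FPKM), SNORD105B (33.6 FPKM) and SNORD127 (23.6 FPKM) were listed at 0 FPKM in the control library and share intervals with longer genes. FPKM divides by length, so a few fragments give such genes a high value. Among protein-coding genes the readthrough gene PEDS1-UBE2V1 was the only one past 2-fold upward (0.821 and 3.28 FPKM), where 0.111% of all were called, and SPAG16 the only one downward, where 0.128% were. At 1.5-fold 7 of 747 protein-coding member genes were higher and 13 lower, or 0.937 and 1.74%, against 1.04% and 1.18% of all. These shares are near the background.

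Among protein-coding genes that reached 5 FPKM with either siRNA, the largest decreases were led by SPAG16, which encodes a protein of the sperm axoneme. It was at 7.46 FPKM in the control library and 2.91 FPKM after LSD1 siRNA (log2 -1.11), and its site lay 272 bases past the far end of the gene on chromosome 2. The same site also lay within 1 kb of an end of the interval that holds VWC2L and VWC2L-IT1. NCAPD3, a condensin II subunit, was at 124 and 64.4 FPKM (log2 -0.93). Its site, on chromosome 11 at 134095204 to 134095782 (hg19, score 56.5), lay 778 bases before the start of NCAPD3 and inside VPS26B, the divergent neighbour, which was at 59.7 and 48.6 FPKM (log2 -0.29). ARG2, the mitochondrial arginase, was at 51.1 and 26.5 FPKM (log2 -0.92) in an interval shared with another gene. RBBP9, whose start was covered by its site, was at 17.5 and 9.65 FPKM (log2 -0.79). CROT, likewise with its start covered, was at 25.8 and 14.9 FPKM (log2 -0.75), while TP53TG1, which is covered by the same site on the other strand, was at 51.1 and 52.8 FPKM (log2 0.05). C18orf32 (93.4 and 54.3 FPKM), FCSK, the fucokinase (11.2 and 6.54 FPKM), and YOD1, a deubiquitinase (7.82 and 4.48 FPKM), complete the 8. C18orf32 shares its interval, and so its site, with RPL17 and other genes.

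Among the same genes the largest increase was smaller. CCDC69 was at 2.78 FPKM in the control library and 5.42 FPKM after LSD1 siRNA (log2 0.77), with a site covering its start on chromosome 5. LAMB3, a laminin subunit, was at 3.18 and 5.90 FPKM (log2 0.72) in an interval shared with another gene, and FLVCR2 at 3.49 and 6.10 FPKM (log2 0.66). HEXIM2, an inhibitor of the elongation factor P-TEFb, was at 5.62 and 9.26 FPKM (log2 0.63). Below 1.5-fold on the log2(FPKM + 1) scale were PTPRR, a tyrosine phosphatase (8.06 and 12.1 FPKM, log2 0.53), HDAC1 (93.0 and 131 FPKM, log2 0.49) and CEP85, a centrosome protein (5.41 and 7.89 FPKM).

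**Figure D5:**
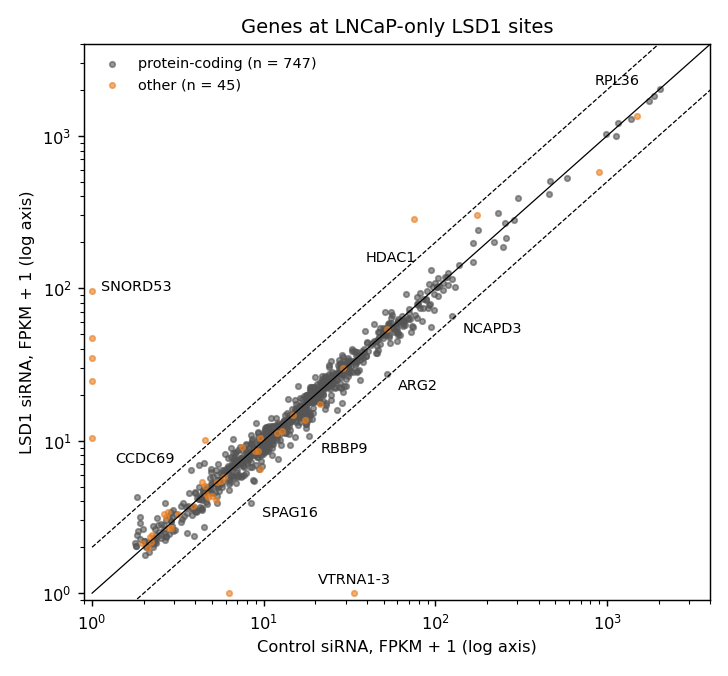
FPKM + 1 of the 792 genes at member sites in the control siRNA library (x axis, log scale) and the LSD1 siRNA library (y axis, log scale), protein-coding genes in grey and others in orange. The solid line is equality and the dashed lines are 2-fold. Most genes follow the line, with a median log2 difference of -0.02, and SPAG16 lies below the lower dashed line.

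In the authors' deposited table, an accession was called changed for 7 genes at member sites, or 0.647% of 1082, against 0.572% of all 22885 genes. Of these, 3 also stood among the 8 largest decreases. The table gives a q of 0.0113 for NCAPD3, 0.0183 for RBBP9 and 0.0152 for an accession of SPAG16. For the other 4 the authors' deposited table calls single transcripts that were listed at 0 FPKM in 1 of the libraries, while the sum over the gene's transcripts was 1.5-fold apart in none of them. RNF182, a ubiquitin ligase gene with a site before its start, was at 1.07 and 0.995 FPKM in sum, RIPOR1 at 17.5 and 17.7 FPKM, SLC30A6, a zinc transporter of the Golgi, at 11.4 and 9.14 FPKM, and HPSE, heparanase, at 0.535 and 0.603 FPKM.

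Genes of the androgen and LSD1 lists were then read. Of 58 androgen-induced genes in the table, a list chosen with results of these data known, 4 had a member site at an end, or 6.90% (2.71 to 16.4%), against 4.73% of all genes. Besides NCAPD3 these were SPDEF, a prostate-derived ETS factor (97.2 and 70.6 FPKM, site 396 bases past its far end), C1orf116 (58.6 and 44.2 FPKM) and INSIG1, a regulator of sterol synthesis (37.2 and 39.1 FPKM). Their median log2 difference was -0.43, and that of all 58 was -0.36, close to that of the 4. KLK3, KLK2, TMPRSS2 and FKBP5 had no member at an end. Of 26 androgen-repressed genes 2 had one (7.69%, 2.14 to 24.1%), the chemokine scavenger ACKR3 (21.7 and 15.04 FPKM) and the neuroserpin gene SERPINI1 (4.39 and 5.99 FPKM). The site at SERPINI1 lay 212 bases before its start and covered the start of PDCD10, the divergent neighbour (49.0 and 52.4 FPKM).

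Of 27 genes of the LSD1 complexes 3 had a member site, or 11.1% (3.85 to 28.1%), an interval that holds the 4.73% of all genes. HDAC1 had a site over its start on chromosome 1 (32757476 to 32758251, hg19, score 55.1). The corepressor CTBP1 (52.3 and 58.0 FPKM) had one at its far end on chromosome 4, and CHD4, the remodelling enzyme of NuRD (48.5 and 49.6 FPKM), one within 84 bases of an interval it shares. None of the 3 passed 1.5-fold.

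For gene families the share with a member site is read against the 4.73% of all genes. Zinc finger genes had a member site in 34 of 535 cases (6.36%, 4.58 to 8.75%), with a median log2 difference of -0.05 over the 32 measured, against -0.03 for the family, and none past 1.5-fold. The largest differences were in ZSCAN21 (4.31 and 2.88 FPKM), the transcribed pseudogene ZNF37BP (4.30 and 3.10 FPKM), ZNF649 (6.47 and 4.86 FPKM) and ZNF764 (6.11 and 7.67 FPKM). Solute carrier genes had one in 24 of 374 cases (6.42%, 4.35 to 9.37%), with a median of -0.02 over 18 and none past 1.5-fold. Among them were SLC10A7 (6.72 and 4.91 FPKM), SLC30A6 and SLC36A1 (3.33 and 2.57 FPKM). Cytosolic ribosomal protein genes had one in 6 of 84 cases (7.14%, 3.31 to 14.7%), with a median of -0.02. Besides those named, these were RPS3 (465 and 503 FPKM) and RPL36AL (585 and 527 FPKM). MicroRNA and small nucleolar RNA genes had one in 55 of 1646 cases (3.34%, 2.58 to 4.32%), an interval that lies under the share of all genes, and only 7 of the 55 had an interval of their own. Of these 55 genes 14 were measured, with a median difference of 0.97 on the log2(FPKM + 1) scale against -0.20 for the family, and 10 passed 1.5-fold and 8 passed 2-fold. Over all 12914 genes measured 0.844% were called higher and 1.13% lower at 2-fold, and 1.91% and 2.41% at 1.5-fold. The share of the family past these limits was not computed. The 8 are among the short genes described above, several of them listed at 0 FPKM in 1 library, where the value depends on the pseudocount. Those at 0 FPKM in the control library were measured only because they were high after LSD1 siRNA, so the median of 0.97 is not read as a change.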

How the data were processed

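LSD1 and H3T6ph were profiled by ChIP-seq and LNCaP RNA by RNA-seq (TruSeq RNA kit v2, which does not mark strand). Per the submitters' processing notes, the authors used Bowtie2 2.0.0, MACS2, TopHat2 2.0.4 and Cuffdiff 2.0.1 with build hg19. Each deposited peak list holds 1 score per peak. Expression was deposited as FPKM per RefSeq accession, beside the authors' p-value and q-value, per the file headers. No source used here gives the ChIP depth or control track, so the depth behind peaks is unknown.

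Overlap meant at least 1 shared base. The count of members was checked with bedtools 2.31.1, and the scripts (Python 3.11.15) were tested on simulated data. Of 40253 accessions 96.7% were matched to a symbol through RefSeq (GRCh38.p14), their FPKM were summed per gene, and 42 genes with a failed accession were left out. Strand came from the RefSeq promoter table, which held 846 of the 1082 member genes. Interval and gene length agreed within 100 bases for 53.5% of oriented genes, so a RefSeq start can differ from the end of the interval used here. Promoters were printed only where they agreed.

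Members and lists were chosen with earlier results of these data known. Genes and sites were named by rule: the 8 highest-scoring sites, the 8 largest increases and 8 largest decreases among protein-coding genes at 5 FPKM or more, the 6 highest control levels, genes with an accession called by the authors, list members, and up to 4 of a family. Some results that this rule names are not reported here. With 1 library per group no test was made. Genes were called at 2-fold on log2(FPKM + 1). Alternatives changed the distance, filters, pseudocount, fold and gene sets.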

Additional observations from a re-analysis of the deposited data

How the results depend on the processing

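The share of LNCaP-only LSD1 peaks at gene ends followed the distance allowed, at 6.46% within 500 bases, 10.8% within 2 kb and 6.96% by the peak midpoint. It was 6.66% among peaks scoring above the list's median of 66.6. The share of member genes detected was 81.9% at 0.1 FPKM (68.1% of all genes), 58.3% at 5 FPKM (42.3%), 78.6% for protein-coding genes (62.0%), 74.4% within 500 bases and 76.9% for genes with an interval of their own, and stayed above that of all genes under each alternative run. The median log2 difference was 0 with no filter, as for all genes. The count past 2-fold, 11, became 31 at 1.5-fold, and 2 for protein-coding genes, 2 for genes with an interval of their own and 2 without genes under 300 bases. The share at a gene start was 82.8% within 500 bases and 75.2% above the median score. CpG-rich promoters were 67.3% at a ratio of 0.75 (51.5% of all) and 87.2% of genes at 1 FPKM or more (84.4% of all). The last 2 results and the alternative of genes with an interval of their own were added after seeing the data, as was the one without short genes. Of 39 alternative values 21 stayed within the interval of the reported value or, for counts, within 1.5 times it. No paired analysis was possible because each group holds 1 sample.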

Other observations

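At 29 member sites the starts of 2 divergent genes lay within 1 kb of the site, and both genes were at 1 FPKM or more in the control library at 25 of them. The same share over all divergent pairs was not computed. The 4 pairs given here were chosen after their values were seen. One site covered the starts of ATM, the kinase that responds to DNA double-strand breaks (9.09 FPKM in the control and 8.61 FPKM in the LSD1 siRNA library), and of NPAT, an activator of histone genes (7.96 and 7.58 FPKM). Another covered LIG4, the ligase of end joining (8.96 and 7.49 FPKM), and ABHD13 (3.70 and 2.84 FPKM). A strong site (score 127.2) covered TDP1, which removes stalled topoisomerase from DNA (8.25 and 6.84 FPKM), and EFCAB11 (8.57 and 6.31 FPKM). A weak site (score 50.6) lay 324 bases before the start of GEN1, a resolvase of DNA junctions (1.79 and 1.44 FPKM), and inside SMC6 (4.16 and 4.24 FPKM), 243 bases from its start. None of these 8 genes passed 1.5-fold, whereas NCAPD3 (log2 -0.93) and CROT (log2 -0.75), at other sites of the 29, did.

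Separate member sites stood at the start and at the far end of 5 oriented genes. Genes such as GPR148, where a single site was near both ends, are not counted among them. The 5 were CEP350, a centrosome protein, DENND1B, MARCHF4, TEFM, the elongation factor of mitochondrial transcription, and GSPT1, the translation release factor. Of the 902 intervals with a LNCaP-only site 51 (5.65%) also had a VCaP-only LSD1 site at an end, which is 3.33% of the 1532 intervals with one. Over all 19527 intervals 4.62% had a LNCaP-only site and 1532 had a VCaP-only one. Both rules leave out LSD1 peaks of the 2 lines that overlap each other. The joint count is thus limited by the choice of sites and is given as a description.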
